A study of Homo sapiens with 15 samples.

Results

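The 8 cadherin genes described here are CDH1, CDH3, CDH16 and CDH6, taken as epithelial or kidney cadherins, and CDH2, CDH11, CDH4 and CDH13, taken as mesenchymal or other cadherins. They were picked by name for their part in the cadherin switch of epithelial-to-mesenchymal transition (EMT), and they are 8 of 20033 protein-coding genes in the GENCODE v44 annotation of hg38. For each gene, every ATAC-seq peak within the gene body and 20 kb on either side was collected from 15 peak lists, which gave 455 of the 295008 merged regions of the genome. A merged region is a stretch covered by overlapping peaks in which at least 2 libraries had a peak. ATAC-seq marks open chromatin, since the Tn5 transposase cuts where DNA is not packed.

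The libraries came from RPTEC, a human renal proximal tubule epithelial line immortalised with hTERT. The 15 libraries formed 5 groups of 3. WT was the line with intact SETD2, the enzyme that places the H3K36me3 mark on the bodies of transcribed genes. KO1 and KO2 were single clones with frameshifts from CRISPR/Cas9 cutting in exon 3 of SETD2, and Rescue1 and Rescue2 were KO cells given full-length 3×FLAG-tagged SETD2 by lentivirus under blasticidin, picked as single colonies. All groups carried hTERT and grew in the same serum-containing medium. The rescue lines bear the clone code of KO2 in the sample sheet of the study, so rescue was set against both KO clones and against KO2 alone. A clone was 1 culture line with 3 libraries, so the p-values below describe the spread between libraries of these lines, and SETD2 status and clonal origin cannot be told apart. A frameshift leaves no mark in a peak list, so the genotype labels were not checked from the data.

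Classical cadherins are calcium-dependent adhesion proteins that join like cells at adherens junctions and bind catenins inside the cell. In EMT, E-cadherin is repressed by Snail and ZEB factors that bind E-box sequences near its promoter, while N-cadherin and other mesenchymal cadherins appear. Tubule cells of the kidney are unusual among epithelia in that they carry N-cadherin, cadherin-6 and the kidney-specific cadherin-16 beside or in place of E-cadherin. The comparison addressed whether the epithelial and kidney loci lost open chromatin in SETD2 KO cells as the mesenchymal loci gained it, and whether re-expressed SETD2 turned such changes back.

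The peak lists held no read counts, so the read depth of the libraries is unknown. The measure for a locus was the number of bases under called peaks, and a stretch without a peak was below the calling threshold, which is not the same as closed. The lists held 197527 to 266011 peaks and covered 49.4 to 65.2 Mb. Epithelial keratin and EPCAM starts (4 of 4 markers) had a peak in all 15 libraries, as had 7 of 12 kidney markers at any protein-coding start, PAX8 and ANPEP among them. HNF4A and SLC5A2 had none in any library. The endothelial markers PECAM1, TIE1 and VWF and the leukocyte markers PTPRC and CD3E also had none, The fourth endothelial marker, CDH5, had a peak at any start in 0 of 3 WT, 1 of 6 KO and 6 of 6 rescue libraries. All 3 fibroblast markers (COL1A1, DCN and PDGFRB) and CD14 had a peak at some start in every library. At the outermost start, however, DCN had a peak in 0 of 3 WT, 6 of 6 KO and 1 of 6 rescue libraries, COL1A1 in 2 libraries, both KO1, and PDGFRB in all 15. The part of these differences in the results at the cadherin loci was not tested.

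Between KO and WT the loci did not separate by class. Bases under peaks rose at 1 of the 8 loci, CDH11, and fell at 4 of them, CDH4, CDH3, CDH1 and CDH16. CDH6, CDH2 and CDH13 did not pass the threshold. Fewer cells with an open region and less open chromatin in each cell cannot be told apart in bulk libraries. The fall took in 3 of the 4 epithelial or kidney loci and 1 of the 4 mesenchymal or other loci, and the rise 1 of the latter. Of all 19001 genes tested with limma on log2(bases + 100), 15.9% were called higher and 13.9% lower at an adjusted p under 0.05. The median log2 fold change was -0.12 over the 8 loci and -0.01 over all genes. When bases were scaled to the total under peaks of each library, the median of all genes moved to -0.12 and the share of calls that were higher moved from 53.4% to 24.8% (to 38.2% with each list cut to its 150000 strongest peaks). The same 5 loci kept their calls and directions after scaling, and CDH2, at -0.12, was then called lower (limma, adjusted p = 0.0157).

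**Figure D1:**
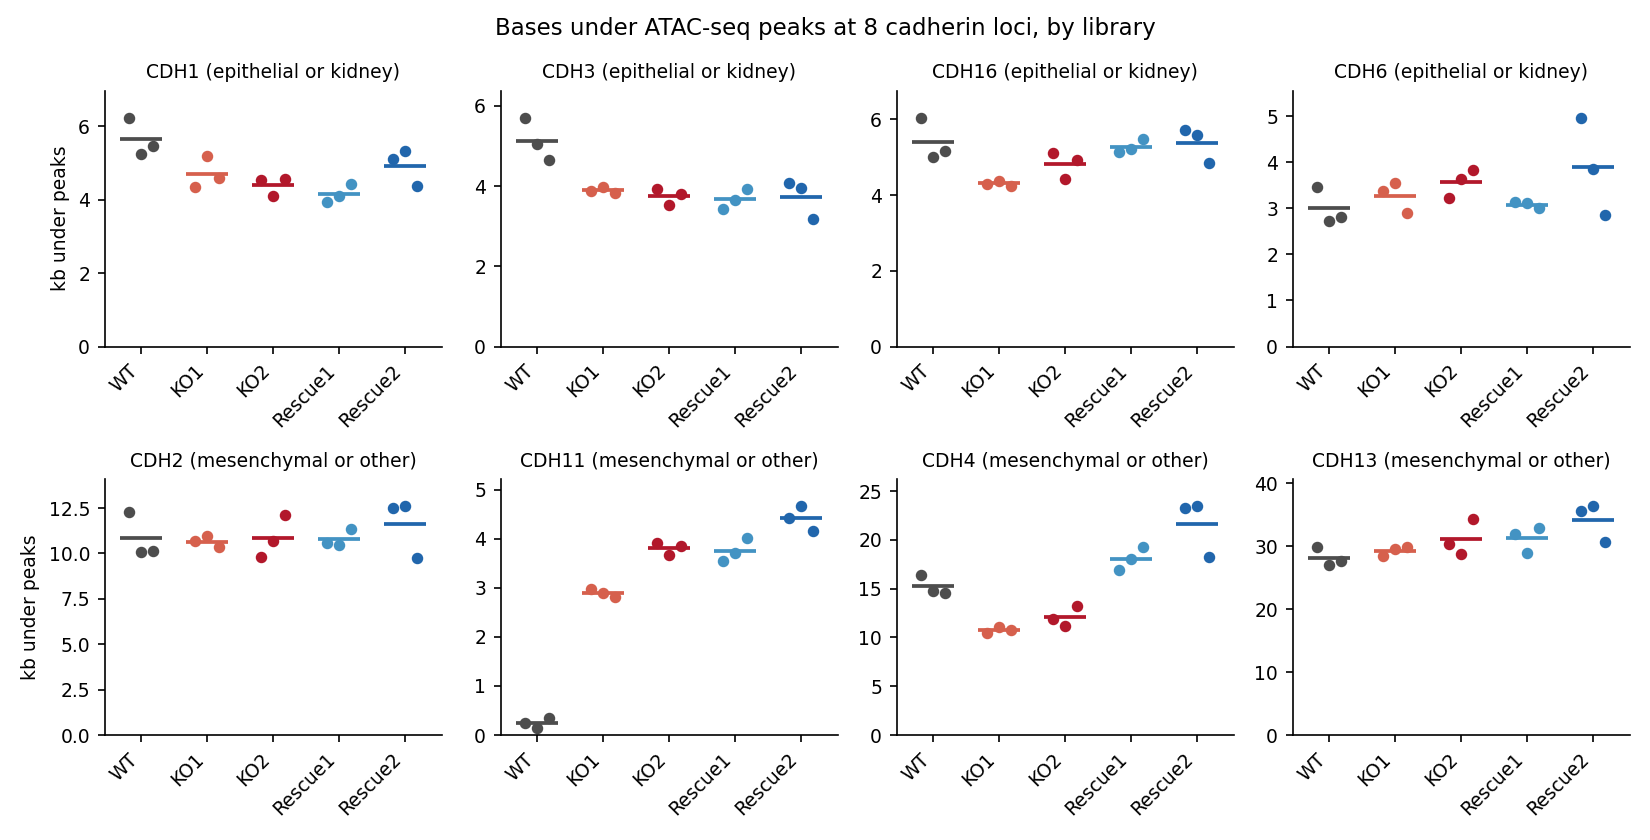
Bases under ATAC-seq peaks (kb, from 0) in the gene body and 20 kb flanks of each cadherin gene, with 1 point per library and the group mean as a line. At CDH11 the 3 WT libraries lie between 139 and 337 bases and all others at 2804 or more, at CDH3 all KO libraries lie below the WT libraries, and at CDH4 the rescue libraries lie above the KO libraries.

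CDH1 encodes E-cadherin, the main adhesion molecule of epithelial junctions, and lies at chr16:68737292-68835537 on the plus strand. It held 6227, 5245 and 5456 bases under peaks in the WT libraries, 4350, 5180 and 4597 in KO1, and 4542, 4109 and 4555 in KO2. All 6 KO libraries were below all 3 WT libraries, though the gap between 5180 in KO1 and 5245 in WT was narrow. The log2 fold change was -0.30 ± 0.08 (SE, limma, adjusted p = 0.0044). The call was lost when only peaks with a −log10 q of at least 5 were kept (adjusted p = 0.103) and with 50 kb flanks (adjusted p = 0.201). Of the 20 regions in the window 8 had a peak in all 15 libraries.

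At the CDH1 start itself a peak was called in 3 of 3 WT libraries, in 1 of 6 KO libraries and in no rescue library. These peaks were weak even in WT. Their fold enrichment ranked at the 2.75th, 9.59th and 3.17th percentile of the peaks in their own lists, and the KO2 peak ranked at the 6.48th. The difference of the mean percentile missed the threshold (two-sided exact permutation test, p = 0.19, smallest possible p = 0.0238). Leaving out KO2 replicate 1 removes the only KO peak there, so WT and KO then separate by construction. The same exact permutation test could then only return its smallest possible value, p = 0.0357, and decides nothing. Inside the gene, a region of intron at chr16:68778530-68778857 had a peak in every WT library and in none of the 12 KO and rescue libraries. Its fold enrichment over local background in WT was 6.71, 9.15 and 6.85. In the opposite direction, the intron regions chr16:68738735-68738982 and chr16:68793029-68793276 were gained, that is, each of the 6 KO libraries had a peak there and the WT libraries had none. The former also lies in the CDH3 window.

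CDH3 encodes P-cadherin, found in basal layers of stratified epithelia, and lies upstream of CDH1 at chr16:68636189-68727468. Bases under peaks were 5700, 5058 and 4642 in WT, 3890, 3985 and 3829 in KO1, and 3921, 3537 and 3798 in KO2. The WT and KO libraries did not overlap. The log2 fold change was -0.41 ± 0.08 (SE, limma, adjusted p = 0.00031). At the outermost annotated start, a region at chr16:68636111-68636611 had a peak in the 3 WT libraries, with fold enrichments of 6.27, 5.82 and 7.06, and in none of the other 12 libraries. That start belongs to no protein-coding transcript, and the start of the canonical transcript CDH3-201 lies 9121 bp downstream. There the peak ranked at the 31.8th, 43.2nd and 20.6th percentile in WT. It ranked at the 38.2nd, 50.6th and 37.2nd in KO1, at the 10.3rd and 13.6th in 2 KO2 libraries, and was absent from the third. The canonical start thus overlapped between KO and WT (two-sided exact permutation test, p = 0.595), and the KO2 libraries were below KO1.

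The windows of CDH1 and CDH3 share 30177 bp that hold the CDH1 start, so the 2 loci are not independent. In the shared stretch the mean was 1677 ± 85.5 bases in WT (SD, n = 3), 1047 ± 91.0 in KO1 and 1011 ± 15.7 in KO2 (two-sided exact permutation test, p = 0.0238). In the part of the window that belongs to CDH3 alone the KO mean was 659 bases below WT (exact permutation test, p = 0.0238). In the part that belongs to CDH1 alone it was 439 bases below (exact permutation test, p = 0.143), which did not pass the threshold.

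The regions with the highest rank among those lost at the epithelial loci are shown by their central bases, read from hg38 on the plus strand. They carry the WT-only peaks inside CDH1 and at the outermost CDH3 start, which mark the clearest loss at the epithelial pair. Capitals mark E-boxes (CANNTG) and AP-1 sites (TGANTCA).
CDH1 intron, chr16:68778544-68778843: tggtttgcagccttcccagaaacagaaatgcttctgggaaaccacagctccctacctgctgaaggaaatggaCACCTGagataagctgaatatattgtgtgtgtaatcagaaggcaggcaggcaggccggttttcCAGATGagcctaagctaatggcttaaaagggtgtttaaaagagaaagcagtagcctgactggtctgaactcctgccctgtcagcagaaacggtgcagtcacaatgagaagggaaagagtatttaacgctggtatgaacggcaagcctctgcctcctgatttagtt
CDH3 upstream start, chr16:68636212-68636511: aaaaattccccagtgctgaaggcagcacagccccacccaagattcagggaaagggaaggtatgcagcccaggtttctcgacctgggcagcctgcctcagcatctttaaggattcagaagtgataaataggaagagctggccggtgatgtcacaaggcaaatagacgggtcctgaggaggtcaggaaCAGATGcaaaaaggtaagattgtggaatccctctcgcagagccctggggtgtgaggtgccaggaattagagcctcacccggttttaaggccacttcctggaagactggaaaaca
The CDH1 intron window holds 2 E-boxes, 1 of them of the CAGGTG or CACCTG form that Snail and ZEB factors bind, and the CDH3 window holds 1 E-box of another form.

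CDH16 encodes KSP-cadherin, expressed in kidney tubules, and lies at chr16:66908122-66918917 on the minus strand. Bases under peaks were 6037, 5005 and 5169 in WT, 4294, 4379 and 4248 in KO1, and 5106, 4423 and 4921 in KO2. KO1 was below every WT library, whereas KO2 replicate 1 lay within the WT range. The log2 fold change was -0.24 ± 0.07 (SE, limma, adjusted p = 0.0156), and it lost its call in KO2 alone (adjusted p = 0.187) and without WT replicate 1 (adjusted p = 0.136). The gene body without flanks gave -0.14 (limma, adjusted p = 0.666), and the flanks also hold parts of CES2, CIAO2B, PDP2 and RRAD. No region of the 18 was gained or lost in every KO library. The CDH16 promoter peak rose in rank, from a mean percentile of 68.7 ± 3.25 in WT (SD, n = 3) to 80.8 ± 4.48 in KO (SD, n = 6; exact permutation test, p = 0.0238), while bases at the locus fell. Ranked by −log10 q in place of fold enrichment, the difference was -0.67 (exact permutation test, p = 0.714).

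CDH6 encodes K-cadherin, present in proximal tubule and in renal cancers, and lies at chr5:31193686-31329146. It held 3463, 2732 and 2810 bases under peaks in WT, 3383, 3546 and 2894 in KO1, and 3231, 3637 and 3834 in KO2. The groups overlapped, and the log2 fold change of 0.19 ± 0.11 (SE) missed the threshold (limma, adjusted p = 0.236). Of its 26 regions, 2 neighbours at chr5:31231296-31231465 and chr5:31231534-31231697 were gained and 1 at chr5:31234552-31234682 was lost, all in introns, between 37704 and 40905 bp from the start.

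CDH2 encodes N-cadherin, the mesenchymal counterpart of E-cadherin that proximal tubule cells also carry, and lies at chr18:27932879-28177946 on the minus strand. Its bases under peaks were 12284, 10072 and 10140 in WT, 10674, 10945 and 10357 in KO1, and 9813, 10667 and 12112 in KO2. The groups overlapped throughout, and the log2 fold change was -0.01 ± 0.09 (SE, limma, adjusted p = 0.969). The peak at the canonical start had a mean percentile of 43.3 ± 5.88 in WT (SD, n = 3) and 44.1 ± 6.37 in KO (SD, n = 6; exact permutation test, p = 0.976). A second start inside the gene, covered by a region at chr18:28045425-28045802, was also held by all 15 libraries. The highest-ranked peak over all protein-coding starts stood at 93.6 to 95.2 in WT and 88.7 to 92.4 in KO, with no overlap (exact permutation test, p = 0.0238). In rescue it ranged from 86.5 to 94.2, which overlapped both. This setting was added after the data were seen, and the share of all genes that separate in it was not computed. Of the 68 regions 1 was lost, at chr18:28136202-28136363, and none was gained. The promoter is shown as the open start that all 15 libraries shared, with bases from 250 before to 50 after the RefSeq start (GRCh38.p14, minus strand).
CDH2 promoter, chr18:28177081-28177380: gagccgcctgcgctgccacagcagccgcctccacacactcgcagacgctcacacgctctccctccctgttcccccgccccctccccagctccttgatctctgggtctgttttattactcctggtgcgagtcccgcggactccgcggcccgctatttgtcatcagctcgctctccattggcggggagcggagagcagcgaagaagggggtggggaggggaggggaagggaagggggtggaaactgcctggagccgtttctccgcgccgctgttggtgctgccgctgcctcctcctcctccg
It holds neither an E-box nor an AP-1 site, and 68.7% of the 35116 promoters in the RefSeq table hold at least 1 E-box.

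CDH11 encodes OB-cadherin, a cadherin of mesenchymal cells and osteoblasts, and lies at chr16:64943753-65126112 on the minus strand. It gave the largest change of the 8 loci. Bases under peaks were 244, 139 and 337 in WT, 2973, 2899 and 2804 in KO1, and 3908, 3673 and 3847 in KO2. No KO library came near the highest WT library, and the ratio of the means was 14.0. The log2 fold change was 3.37 ± 0.12 (SE, limma, adjusted p = 3.42e-18), which ranked 29th from the top of 19001 genes. With a pseudocount of 1000 bases it was 1.81, since WT was near 0.

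The CDH11 window held 24 regions, and 1 of them had a peak in all 15 libraries. Of the 24, 7 were gained and 0 were lost. The strongest, in an intron at chr16:65070846-65071174, had fold enrichments of 15.7, 13.8 and 22.1 in KO1 and 17.5, 19.9 and 17.2 in KO2. This placed it at the 94.4th percentile or higher of the peaks in every KO list. The next, at chr16:65044737-65045228, ranged from 10.7 to 15.8 in KO, and chr16:64983900-64984383 from 11.3 to 15.4. The others were chr16:64964193-64964694, chr16:64952215-64952471 and chr16:65002219-65002488 in introns and chr16:65122899-65123748 within 500 bp of an annotated start. At the canonical start a weaker peak was present in 2 of 3 WT libraries and in all KO and rescue libraries. Its mean percentile was 10.8 ± 9.55 in WT and 25.9 ± 12.4 in KO, which overlapped (exact permutation test, p = 0.143). The strongest gained intron regions therefore ranked far above the start of the gene. The central bases of the 2 strongest are printed from hg38 (plus strand), with E-boxes and AP-1 sites in capitals.
CDH11 intron, chr16:65070861-65071160: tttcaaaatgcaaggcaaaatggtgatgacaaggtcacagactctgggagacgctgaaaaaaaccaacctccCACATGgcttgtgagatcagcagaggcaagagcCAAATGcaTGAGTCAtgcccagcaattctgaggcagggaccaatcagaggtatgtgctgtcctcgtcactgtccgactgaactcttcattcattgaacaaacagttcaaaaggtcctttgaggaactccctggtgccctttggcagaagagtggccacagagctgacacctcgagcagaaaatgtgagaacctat
CDH11 intron, chr16:65044833-65045132: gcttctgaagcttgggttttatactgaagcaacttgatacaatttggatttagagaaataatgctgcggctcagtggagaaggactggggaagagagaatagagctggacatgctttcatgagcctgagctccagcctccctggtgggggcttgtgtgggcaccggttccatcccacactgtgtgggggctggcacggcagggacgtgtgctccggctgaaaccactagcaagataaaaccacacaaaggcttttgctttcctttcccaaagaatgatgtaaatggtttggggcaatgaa
The first holds 2 E-boxes and 1 AP-1 site, and the second holds none of either.

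CDH4 encodes R-cadherin, a cadherin of retina, brain and developing kidney, and lies at chr20:61252261-61940617. Bases under peaks were 16423, 14724 and 14610 in WT, 10460, 11053 and 10721 in KO1, and 11855, 11195 and 13189 in KO2. All KO libraries were below all WT libraries, which set it with CDH1 and CDH3 and apart from CDH11. The log2 fold change was -0.42 ± 0.08 (SE, limma, adjusted p = 0.00029). Of 105 regions 6 were lost and none was gained, and all 6 lay in introns, between 361435 and 622616 bp from the start. The strongest, chr20:61821775-61822169, had fold enrichments of 13.7, 17.1 and 15 in WT, and is shown because it was lost in every KO library and present again in every rescue library.
CDH4 intron, chr20:61821823-61822122: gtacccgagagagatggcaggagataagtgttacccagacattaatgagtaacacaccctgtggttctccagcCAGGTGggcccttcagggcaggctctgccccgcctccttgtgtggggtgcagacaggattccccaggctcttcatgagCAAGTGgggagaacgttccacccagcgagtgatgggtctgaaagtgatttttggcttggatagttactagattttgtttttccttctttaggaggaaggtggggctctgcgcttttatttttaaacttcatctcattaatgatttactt
It holds 2 E-boxes, 1 of the Snail and ZEB form.

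CDH13 encodes T-cadherin, which is anchored to the membrane by a lipid and lacks the cytoplasmic tail that binds catenins, and lies at chr16:82626965-83800640. Its window is the longest of the 8, at 1213676 bp, and held 174 regions. Bases under peaks were 29828, 26958 and 27724 in WT, 28453, 29491 and 29862 in KO1, and 30365, 28828 and 34383 in KO2. The groups overlapped, and the log2 fold change was 0.10 ± 0.08 (SE, limma, adjusted p = 0.409). It gained 3 regions and lost 3. The strongest gained region, chr16:83344020-83344468, ranged in fold enrichment from 8.68 to 13.4 in KO.

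**Figure D2:**
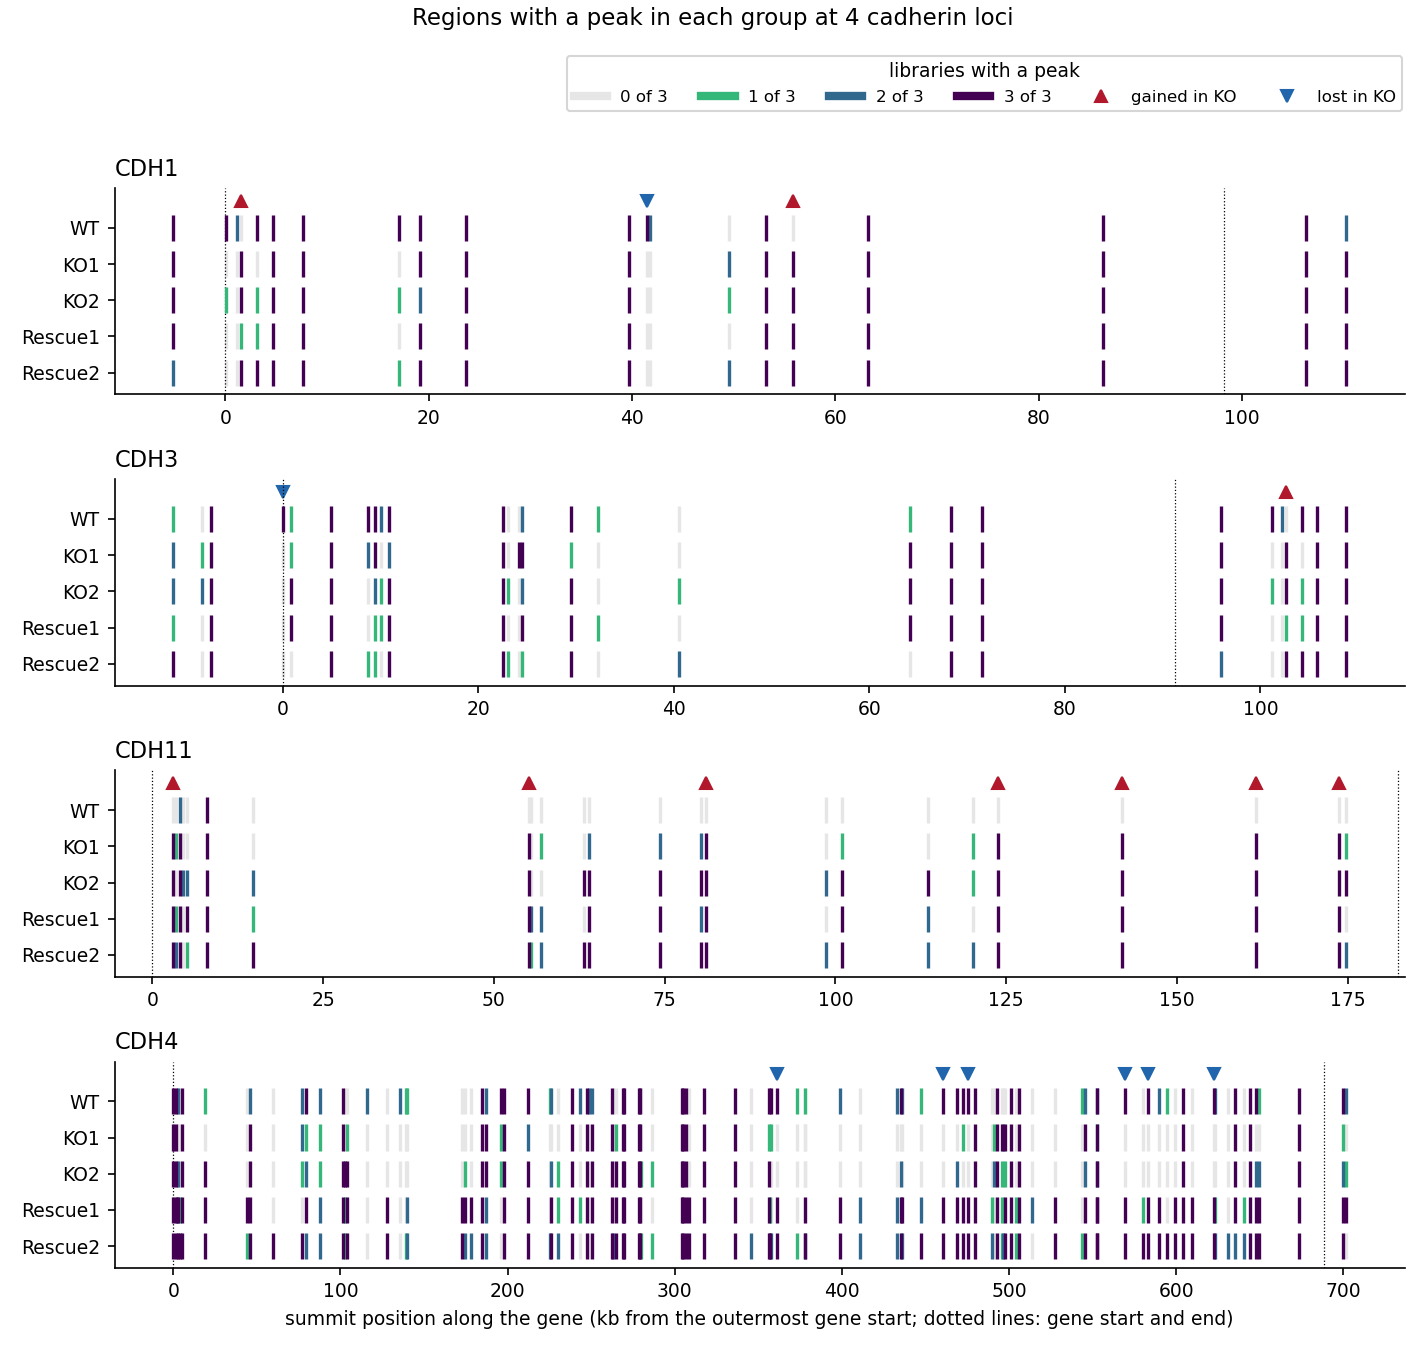
Merged regions at CDH1, CDH3, CDH11 and CDH4 by distance of the summit from the outermost gene start (kb, along the gene), with 1 row per group and colour for the number of its 3 libraries with a peak. Triangles mark regions gained (7 at CDH11) or lost (6 at CDH4) in all KO against all WT libraries.

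Over all 8 windows, 14 regions were gained and 13 were lost in KO against WT. This was 3.08% and 2.86% of the 455 regions, beside 4.79% gained and 2.48% lost over the genome. The counts were therefore not far from the background when summed. They were unevenly spread: CDH11 held 7 of those gained and CDH4 held 6 of those lost. The epithelial and kidney windows had 84 regions, 4 of them gained and 3 lost, and the mesenchymal and other windows had 371, with 10 gained and 10 lost.

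Rescue was compared with KO next, and this comparison shares its KO libraries with the one above. Bases under peaks rose at 3 of the 8 loci, CDH4, CDH11 and CDH16, and fell at none. These counts are near the shares of all genes, of which 31.0% were called higher and 6.83% lower. The median log2 fold change was 0.08 over the 8 loci and 0.10 over all genes. Scaled to total bases under peaks, the share of calls over all genes that were higher moved from 82.0% to 68.6%, CDH3 was then called lower, at -0.11 (limma, adjusted p = 0.0355), and CDH13 higher, at 0.06 (limma, adjusted p = 0.0314).

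CDH4 moved back and past WT. It held 16940, 18030 and 19276 bases under peaks in Rescue1 and 23256, 23436 and 18265 in Rescue2. Every rescue library was above every WT and KO library, and Rescue2 replicates 1 and 2 also had the most bases under peaks in total, 65.2 and 64.5 Mb. The log2 fold change against KO was 0.79 ± 0.07 (SE, limma, adjusted p = 5.78e-10), 0.71 against KO2 alone (limma, adjusted p = 3.35e-07) and 0.37 against WT (limma, adjusted p = 0.00129). All 6 regions lost in KO had a peak in all 6 rescue libraries, and 15 regions of the CDH4 window were gained against KO in total. Of these 15, 6 had no peak in any WT library. The strongest lost region had fold enrichments of 6.04, 6.04 and 6.0 in Rescue1 and 12.9, 12.4 and 10.4 in Rescue2, so Rescue2 was closer to WT. At the canonical start, which for CDH4 is also the outermost one, rescue had the lowest mean percentile. The difference was -3.91 for KO against WT (exact permutation test, p = 0.571). For rescue against KO it was -8.38 (exact permutation test, p = 0.154), and neither passed the threshold. Over all protein-coding starts, which include starts inside the gene, KO was lowest instead. This setting was added after the data were seen, and the share of all genes that separate in it was not computed. The highest-ranked peak stood at the 83.9th, 85.9th and 83.3rd percentile in WT, at 44.6 to 71.6 in KO, and at 75.6 to 93.3 in rescue. In KO1 this value was that of the canonical start in every library, whereas in WT, KO2 and rescue an inner start ranked higher. The KO range, and the tests on it, therefore mix different starts. KO was below both other groups without overlap (exact permutation tests, p = 0.0238 against WT and p = 0.00216 for rescue against KO, each the smallest possible).

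CDH11 did not return towards WT. It held 3553, 3715 and 4012 bases in Rescue1 and 4434, 4660 and 4162 in Rescue2, all far above the highest WT library at 337. Against KO the log2 fold change was 0.29 ± 0.09 (SE, limma, adjusted p = 0.0184), but against KO2 alone it was 0.09 (limma, adjusted p = 0.587), and without Rescue1 replicate 3 it lost its call (adjusted p = 0.0518). Against WT it was 3.66 (limma, adjusted p = 6.48e-19). All 7 regions gained in KO kept a peak in all 6 rescue libraries, and the strongest ranged in fold enrichment from 14.5 to 18.5 there.

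CDH1 and CDH3 also stayed near KO. CDH1 held 3946, 4096 and 4416 bases in Rescue1 and 5099, 5317 and 4366 in Rescue2, which overlapped KO (log2 fold change -0.01 ± 0.06, SE, limma, adjusted p = 0.919). The CDH1 mean was 4153 in Rescue1 and 4927 in Rescue2, on either side of the KO mean of 4556. The highest Rescue2 library was also above the lowest WT library, at 5245. CDH3 held 3436, 3651 and 3924 in Rescue1 and 4081, 3941 and 3175 in Rescue2, which also overlapped KO (-0.05 ± 0.07, SE, limma, adjusted p = 0.571). Against WT both were lower, by -0.31 (limma, adjusted p = 0.00402) and -0.46 (limma, adjusted p = 0.000107). The WT-only regions in the CDH1 intron and at the outermost CDH3 start had no peak in any rescue library.

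CDH16 rose from KO to 5141, 5222 and 5476 bases in Rescue1 and 5706, 5591 and 4857 in Rescue2 (log2 fold change 0.22 ± 0.06, SE, limma, adjusted p = 0.00513). Rescue overlapped WT, but the rise was not called against KO2 alone (0.14, limma, adjusted p = 0.162) or in the gene body without flanks (adjusted p = 0.258). A region seen only in rescue, chr16:66891910-66892076, lay in an intron of the neighbour PDP2. CDH6 held 2854 to 4965 bases in rescue, CDH2 9757 to 12592 and CDH13 28924 to 36326. None of the 3 was called, with log2 fold changes of 0.01, 0.05 and 0.11 (limma, adjusted p = 0.967, 0.57 and 0.199).

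Against WT, rescue was thus called higher at 2 of the 8 loci (CDH11 and CDH4) and lower at 2 (CDH1 and CDH3), where 24.0% of all genes were higher and 3.92% lower. Against KO2 alone it was higher at 1 locus, CDH4, and lower at none, where 18.6% of all genes were higher and 5.55% lower. Between KO2 and KO1 limma called 0 of the 8 loci, where 2.60% of all genes were higher and 0.484% lower. The largest of these changes was that of CDH11, higher in KO2 (log2 fold change 0.39 ± 0.13, SE, limma, adjusted p = 0.146). Between Rescue2 and Rescue1 limma also called 0, where 3.83% were higher and 0.205% lower. The median log2 fold change there was 0.18 over the 8 loci and 0.09 over all genes. In regions, rescue against KO had 19 gained and 1 lost (chr18:28086648-28086821 in CDH2) in the 8 windows, 15 of the gained in CDH4, beside 0.910% gained and 1.24% lost over the genome. Of the 14 regions gained in KO, 11 had a peak in every rescue library, and of the 13 lost in KO, 6 had one in every rescue library and 3 in none. Over the genome 44.7% of gained regions kept a peak in every rescue library and 41.7% of lost regions had none there, while 927 of 7308 lost regions had a peak again in all 6.

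**Figure D3:**
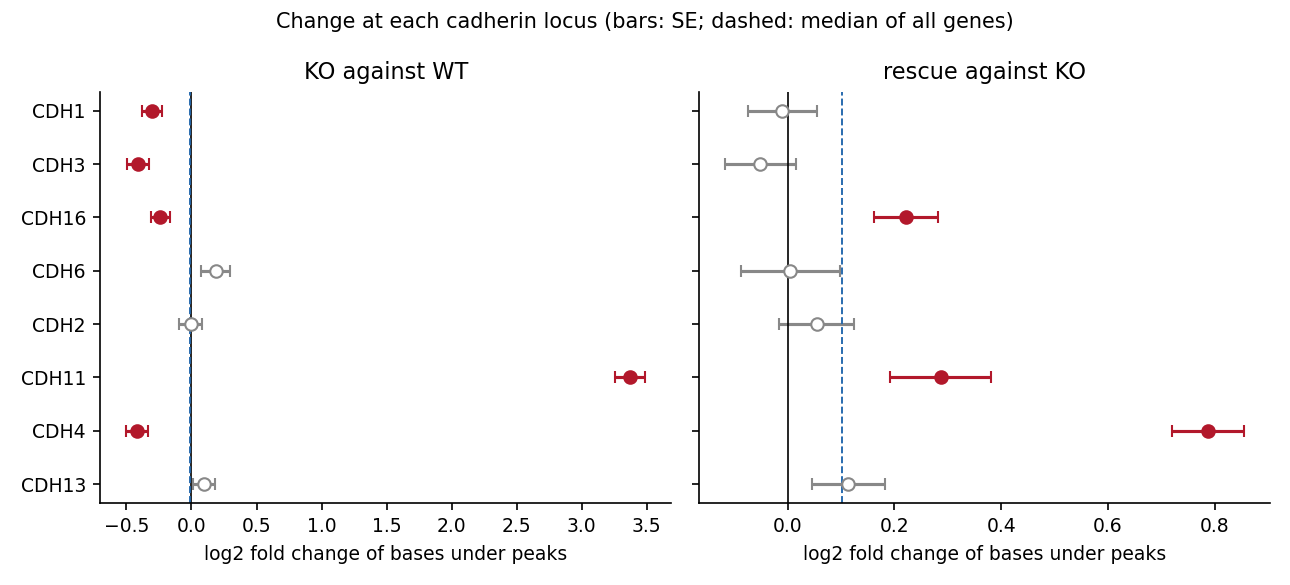
Log2 fold change of bases under peaks with its SE at each locus, KO against WT on the left and rescue against KO on the right, on separate scales. Filled points passed an adjusted p under 0.05 and the dashed line is the median of all genes. CDH11 stands at 3.37 in the first and CDH4 at 0.79 in the second.

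Peaks at the gene starts were also compared by their rank. At the outermost start, the KO and WT percentiles differed at CDH16 (higher) and CDH3 (lower), where 10.2% of 14661 starts with a peak in at least 1 library were higher and 9.01% lower at an exact permutation p under 0.05. In rescue against KO, CDH13 was higher and CDH16 lower, beside 7.35% higher and 22.5% lower of all starts. The CDH13 start ranked at a mean percentile of 31.7 ± 4.76 in rescue (SD, n = 6) and 17.1 ± 6.91 in KO (SD, n = 6; exact permutation test, p = 0.00216), without overlap. At the canonical start 1 of 8 genes was called in KO against WT, CDH16, beside 10.5% higher and 8.92% lower of 15356 starts. The same 2 genes as at the outermost start, CDH13 and CDH16, were called in rescue against KO, beside 6.90% higher and 23.1% lower. CDH6 ranked at 56.3 ± 7.74 in WT and 68.8 ± 5.01 in KO, which missed the threshold (exact permutation test, p = 0.0714).

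**Figure D4:**
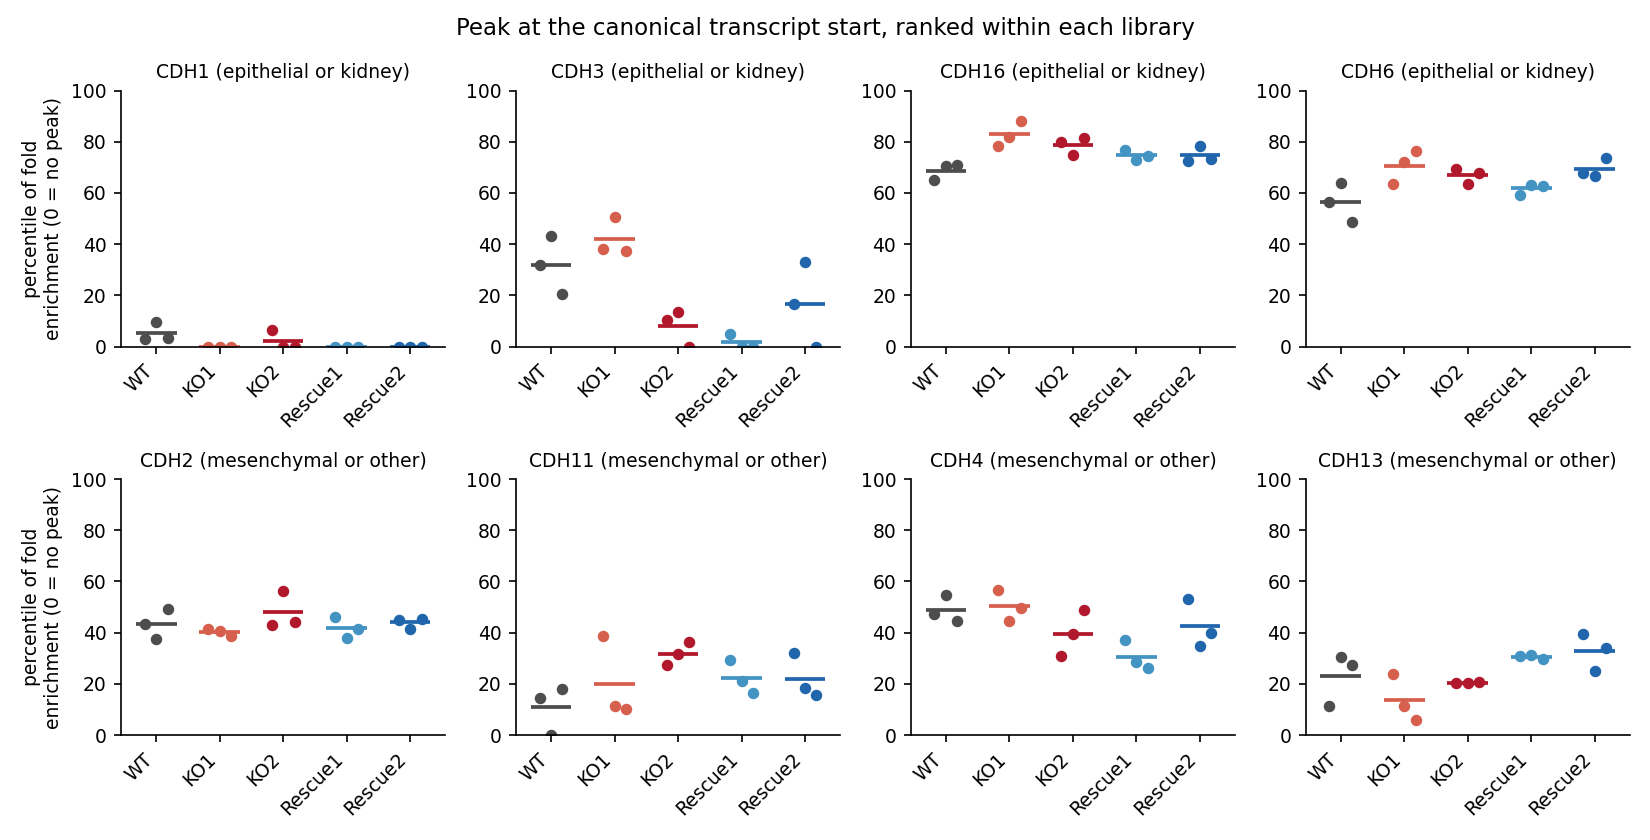
Percentile of the fold enrichment of the best peak within 500 bp of the canonical transcript start, among all peaks of the same library (0 where no peak was called), with 1 point per library and group means as lines. CDH16 lies at 64.9 to 70.7 in WT and 74.7 to 88.3 in KO, and CDH1 at 0 in 5 of 6 KO libraries and in all rescue libraries.

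The E-box of the Snail and ZEB form (CAGGTG, or CACCTG on the other strand) was counted in windows of 300 bp around the midpoint of every region. It was present in 0 of 14 gained and 6 of 13 lost cadherin regions, or 46.2% of the latter. Over the genome it was present in 14.6% of 14118 gained regions, in 35.1% of 7308 lost regions and in 22.9% of all regions. The AP-1 site (TGANTCA, which reads the same on both strands) was added after the sequences had been read. It was present in 7 of 14 gained and 2 of 13 lost cadherin regions, beside 41.8% and 21.1% over the genome and 31.7% of all regions. Any E-box (CANNTG, which includes the Snail and ZEB form) was present in 8 of 14 and 11 of 13, beside 84.9% and 82.9% over the genome. The cadherin regions thus had the same order as all gained and lost regions for both narrower motifs, on few regions.

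**Figure D5:**
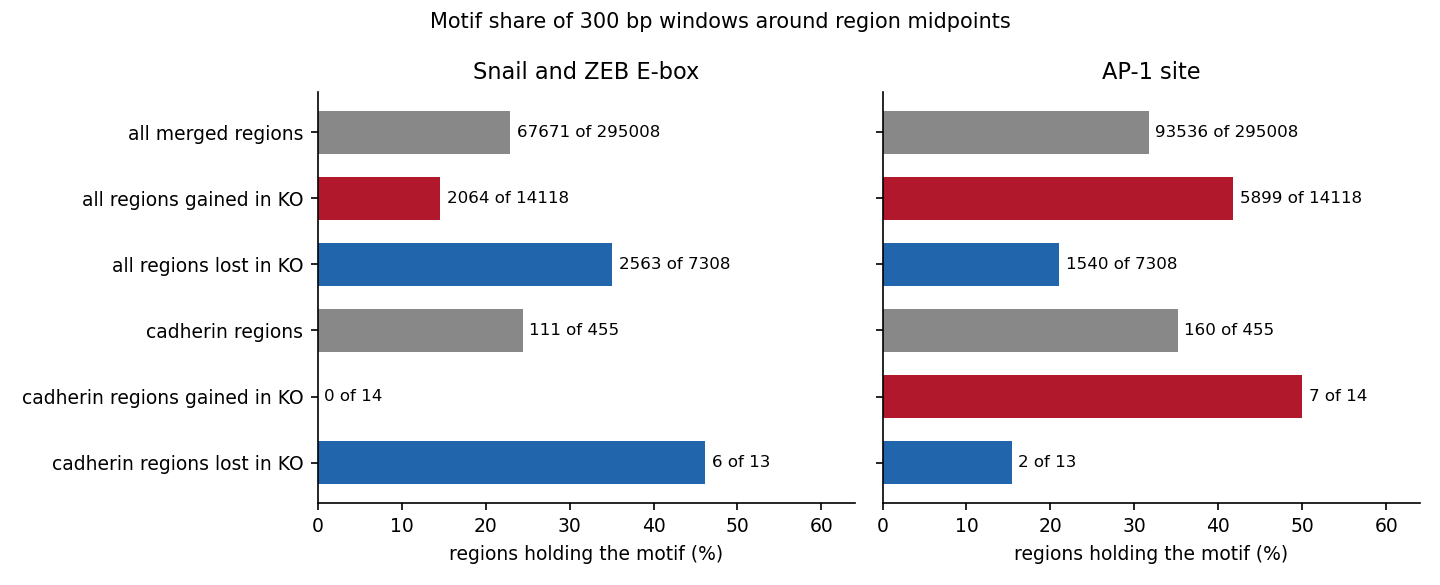
Share (%) of regions whose central 300 bp hold a Snail and ZEB E-box or an AP-1 site, for all regions and for the cadherin regions, with the counts beside each bar. Gained regions (red) hold the E-box in 14.6% and lost regions (blue) in 35.1% of cases over the genome.

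The other genes of the pathway came from 3 lists. Of 15 other cadherins 14 could be tested, and in KO against WT 6 rose and 2 fell, beside 15.9% and 13.9% of all genes. The 2 that fell, named after their values were seen, were CDH15 (log2 fold change -0.83) and CDH9 (-0.73). The median log2 fold change was 0.22. The 5 with the smallest adjusted p all rose: CDH8, CDH19, CDH18, CDH10 and CDH20, type II cadherins best known from the nervous system. CDH8 went from 327 ± 112 bases in WT (SD, n = 3) to 3396 ± 325 in KO1 and 3245 ± 232 in KO2 (log2 fold change 3.03 ± 0.13, SE, limma, adjusted p = 7.98e-16). CDH10 went from 27.0 ± 46.8 to 787 ± 129 and 1460 ± 193. CDH10 and CDH19, with WT means of 27.0 and 51.7 bases, passed the filter of 200 bases only through the KO and rescue libraries, so their rise was favoured by the filter and is a description. In rescue against KO, 4 of the 14 rose and 3 fell, where 31.0% of all genes rose and 6.83% fell. Those that fell were CDH8, CDH19 and CDH20, by -0.40, -0.88 and -0.33 (limma, adjusted p = 0.00551, 1.58e-05 and 0.000633), and all remained above WT. CDH10, like CDH11, was higher than in KO (0.57, limma, adjusted p = 0.00522), but neither was called against KO2 alone. For CDH10 that change was 0.16 (limma, adjusted p = 0.576), and KO2 itself was called above KO1 (0.82, limma, adjusted p = 0.0344). CDH18 was not called (-0.02, limma, adjusted p = 0.846). Of 11 catenins and their partners 2 rose and 1 fell, which is near the shares of all genes, 15.9% and 13.9%. Their log2 fold changes were 1.25 at CTNNA3, an alpha-catenin (limma, adjusted p = 1.29e-11), 0.37 at CTNND2, a delta-catenin, and -0.31 at AFDN, which encodes the junction protein afadin. CTNND2 was not called in KO2 alone (0.25, limma, adjusted p = 0.185). In rescue against KO 1 of the 11 rose and 3 fell, CTNNA3 (-0.68) and CTNND2 (-0.52) among the latter, beside 31.0% and 6.83% of all genes. Of 7 E-cadherin repressors 1 rose, SNAI2 (Slug), by 0.22 ± 0.07 (SE, limma, adjusted p = 0.0154), and none fell, which is also near the share of all genes that rose, 15.9%. SNAI2 was not called in KO1 alone (0.19, limma, adjusted p = 0.0805). In rescue against KO 2 of the 7 rose and 1 fell, beside 31.0% and 6.83% of all genes. SNAI2 was among those that rose (0.14, limma, adjusted p = 0.0463).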

How the data were processed

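ATAC-seq peak lists of 15 RPTEC libraries were analysed, 3 in each of 5 groups named by the labels. The authors aligned reads to hg38 with BWA (0.7.17 in the submitters' processing notes) and called peaks with MACS2 2.2.7.1 in each library, without pooling replicates. The deposited lists give for each peak its fold enrichment (a ratio to local background), −log10 p and −log10 q, and a score made from the latter, which was not used. Cadherin members and gene lists were chosen with earlier results of these data known. Gene models were GENCODE v44. All peaks of the lists lay within the chromosomes of the reference genome.

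Bases under peaks were counted in the gene body and 20 kb flanks of each protein-coding gene. Genes with a mean of at least 200 bases (19001) were tested with limma 3.58.1 (trend) on log2(bases + 100) over all 15 libraries, with Benjamini-Hochberg adjustment and a threshold of 0.05. A fold change on this scale understates the change of loci with few bases. Percentiles rank a peak's fold enrichment within its library, and were compared by two-sided exact permutation tests, which cannot go below 0.0238 with 6 libraries against 3, or below 0.00216 with 6 against 6. Named genes were the 8 members and, from each list, up to 5 genes past the threshold with the smallest adjusted p. Named regions were those gained or lost, up to 6 a locus by rank, with the seventh at CDH11, the regions that changed in rescue alone, the CDH2 and CDH4 inner starts and the CDH4 sequence named after their values were seen. 1 kidney marker of the list is not reported here. The scripts were tested on simulated data. Promoter sequences were from RefSeq (GRCh38.p14), whose table here matched CDH2 and CDH4 among the members. Region sequences were read from hg38. Alternatives changed scaling, peak threshold, list length, flank, pseudocount, filter, test, clone and libraries.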

Additional observations from a re-analysis of the deposited data

Results flagged for a closer look

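In 31 groups of 6 libraries (the KO and rescue libraries at each locus and start), 3 had a library far from the others by Dixon's test, which chance flags in about 1 in 20 groups. At CDH13, KO2 replicate 3 held 34383 bases under peaks, where the next KO library held 30365, and its list was the longest of the KO libraries. At the CDH1 start, KO2 replicate 1 had a peak at the 6.48th percentile, where the other 5 KO libraries had none. With those 5 at 0, any peak would have been flagged. At the CDH2 start, KO2 replicate 2 ranked at the 56.4th percentile, where the next KO library ranked at the 44.3rd. Whether list length has a part in the CDH13 value was not tested.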

How the results depend on the processing

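Of the recomputed counts of loci, regions and starts, 207 stayed within 1.5 times the reported ones and 27 did not. Scaling to total bases called 2759 genes higher and 8381 lower in KO against WT, beside 3012 and 2633 as reported, and 5969 and 2737 in rescue against KO, beside 5897 and 1297. At the 8 loci it called 1 lower in rescue against KO, CDH3, beside 0. With 50 kb flanks 2 loci fell in KO against WT, beside 4, and with KO2 alone 1 rose in rescue, beside 3. Leaving out 1 library gave 1 to 1 locus higher and 3 to 4 lower in KO against WT, and 2 to 4 higher and 0 to 0 lower in rescue against KO. The gained regions in KO against WT (14 reported) were 32 by majority of libraries, 22 in KO1 alone and 33 in KO2 alone, and 14 to 19 with 1 library left out. The lost regions (13) were 46 by majority, 23 with 150000 peaks a list, 23 where peaks had to cover 0.5 of the region and 27 in KO1 alone, and 13 to 21 with 1 library left out (21 without WT replicate 3). In rescue against KO the gained regions (19) were 11 with 150000 peaks, 12 with a −log10 q of at least 5, 9 with 0.5 covered and 30 with KO1 alone, and 19 to 21 with 1 library left out. The lost region (1) became 3 by majority, 3 with 150000 peaks, 0 with the stricter q, 0 with 0.5 covered, 2 with 50 kb flanks, 7 with KO1 alone and 2 with KO2 alone, and 1 to 2 with 1 library left out (2 without KO2 replicate 1 or without KO2 replicate 3). Of the start peaks called (2 in each comparison), 1 was called at the canonical start in KO against WT, and 1 in rescue against KO both by rank of −log10 q and with KO2 alone. Leaving out 1 library gave 2 to 3 in each.

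Signs turned only at small differences, except at the CDH2, CDH4 and CDH16 starts. For log2 fold changes these were CDH2 at 0.0050 with KO2 alone (-0.055 to 0.087 with 1 library left out) and CDH13 at -0.013 scaled, in KO against WT. In rescue against KO they were CDH1 at 0.010 with the stricter q, 0.010 without flanks and 0.037 with KO2 alone (-0.038 to 0.032 with 1 library left out), CDH3 at 0.029 with 50 kb flanks (-0.084 to 0.0037) and CDH2 at -0.0031 scaled. CDH6 stood at -0.051 scaled, -0.11 with 150000 peaks, -0.057 without flanks and -0.055 with KO2 alone (-0.089 to 0.11). For start percentiles in KO against WT, CDH16 was at -0.67 by −log10 q, and CDH2 at -2.30 by −log10 q, -12.8 with a 250 bp window and -3.50 over all starts (-1.74 to 1.82 with 1 library left out). In rescue against KO, CDH16 was at 1.63 by −log10 q, CDH2 at 9.97 with 250 bp, 2.67 with KO1 alone and 0.41 over all starts (-2.29 to 1.27), and CDH4 at 26.4 over all starts. The causes were not tested. The settings with all starts and with the canonical start were added after the data were seen. Start tests in 1 clone against WT, or with a WT library left out, could not reach 0.05 and were not counted.

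Libraries with the same replicate number did not deviate together (median r = 0.0078, from -0.195 to 0.0386 over 30 pairs). A fit with the replicate number as a block gave the same 1 higher and 4 lower loci in KO against WT (CDH1 at an adjusted p = 0.00742 by limma) and 3 higher and 0 lower in rescue against KO, and 2848 genes higher and 2452 lower in KO against WT over all genes. Unknown read depth limits all values: a peak missed in a shallow library reads as 0.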
